A study of Triticum monococcum with 54 samples.

Results

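The transcripts described here are 40 accessions of einkorn (Triticum monococcum), a diploid wheat, chosen by level in whole grain from one stretch of the tables. The N+S- table holds 18308 accessions. Its first 8649, in file order, are the complete rows of the N-S+ table, and the other 9659 follow them. Being outside those rows is a limit of the tables as used here and not a property of the transcripts, and the members stand at rows 8664 to 18270. The 40 members are those of the 9659 with the highest mean share of the raw counts over the 36 libraries of the N+S-, N-S- and N+S+ treatments at 300 to 600 °Cd. They make up 0.218% of the accessions in the N+S- table, and the complete tables list 32047. Their level over those libraries is therefore a description, with no test. Their response to sulfur (S) and nitrogen (N) was not itself a criterion. The mean covers the libraries compared, however, so that an accession high in only part of them could enter through that part.

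Plants were grown in perlite and sand without nutrients until anthesis, the opening of the flower. N+S- plants then received 6 mM N and no S, N-S- plants neither element, and N+S+ plants both, at 6 mM N and 2 mM S, from 200 to 700 °Cd (degree days, accumulated temperature) after anthesis. Grain of each treatment was sampled at 300, 400, 500 and 600 °Cd, and grain of 100 and 200 °Cd carries the N-S- label alone. This gave 42 libraries in 14 groups of 3 biological replicates, as the labels call them. Polyadenylated RNA of whole grain was sequenced, so that fewer cells of a kind and less RNA per cell cannot be told apart.

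In cereal grain the starchy endosperm fills with starch and storage protein, and a small number of storage-protein genes supplies a large part of its messenger RNA. Grain storage proteins differ in how much of the S-containing amino acids cysteine and methionine they hold, and wheat grain short of S is known for a shifted balance between S-rich and S-poor storage proteins. These statements are background: the description fields of the files hold no text for any of the 40 accessions, so that no name or role is given here to any identifier, and the tissue could not be checked against named markers. Whether near-identical copies of a gene share reads could not be checked either, and levels of single accessions carry that limit.

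The N+S- table accessions had 803951 to 2669859 counts per library. In the N-S- and N+S+ libraries this was between 49.5% and 61.5% of the counts of the complete tables, and for the N+S- libraries no such total was at hand. Libraries of 100 to 300 °Cd were on sequencing lane 3, those of 400 °Cd on lane 4 and those of 600 °Cd on lane 5, while 500 °Cd was split between lane 4 (N+S- and N-S-) and lane 5 (N+S+). The difference between N+S- and N+S+ at 500 °Cd, and every difference between 600 and 300 °Cd, therefore cannot be told apart from a difference between lanes. The N-S- libraries of 500 °Cd had 7394, 7542 and 8223 accessions detected, fewer than the 8292 or more of every other library, and comparisons with N-S- grain are given with and without that stage.

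Counts were concentrated in very few of the members. Together the 40 held a mean of 24.7% of the table's counts over the 36 libraries, and TmLoc019089 alone held 48.2% of that amount. The first 2 members, TmLoc019089 and TmLoc025590, held 63.3% of the members' counts, and the first 8 held 80.6%. The mean share was 11.9% for TmLoc019089 and 3.72% for TmLoc025590, against a median of 0.149% over the 40. From rank 1 to rank 40 the share dropped 122.3-fold. At the edge of the choice, TmLoc025268 and TmLoc013117 had 0.0981% and 0.0973%, while TmLoc015433 and TmLoc019870, ranked next and not included, had 0.0971% and 0.0962%. Of the 40 most abundant accessions of the whole N+S- table, 16 are members, and the other 24 are among the complete N-S+ rows, so that the word dominant suits the first ranks better than the last.

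Most of the leading members were short. The length listed for TmLoc019089 was 225 bases, and those of the next 4 by share, TmLoc025590, TmLoc017571, TmLoc017122 and TmLoc025531, were 600, 450, 380 and 804 bases, while the median over the 40 was 1444.5 bases and over all accessions of the table was 909 bases. Scaled to length, the mean level over the 36 libraries was 529016 CPM (counts scaled to a common library total, here without further scaling) per kilobase for TmLoc019089, 61970 for TmLoc025590, 25769 for TmLoc017122 and 24264 for TmLoc017571. TmLoc020624, a listed 4641 bases long, was rank 6 by share and rank 18 per kilobase. The covered length, a field the sources used here do not define, equalled the length in 6 of the 40 members, which is 15%, and in 38.2% of the table's accessions.

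The members' summed share was low in young grain and high from 300 °Cd on. Choice by share at 300 to 600 °Cd favours such a course, so that the summed share is description only. In N-S- grain it was 5.37% ± 0.45 at 100, 14.7% ± 0.89 at 200, 24.5% ± 1.47 at 300, 27.9% ± 1.59 at 400, 27.8% ± 2.65 at 500 and 23.7% ± 1.14 at 600 °Cd (SD, n = 3 each). With N alone (N+S-) it was 23.2% ± 2.08 at 300, 27.2% ± 1.25 at 400, 23.5% ± 2.95 at 500 and 18.4% ± 2.77 at 600 °Cd, and in N+S+ grain 25.3% ± 0.41, 26.3% ± 1.16, 24.3% ± 1.18 and 24.1% ± 1.37 at the same stages. At 600 °Cd the 3 N+S- libraries, at 16.1% to 21.5%, lay below the N-S- libraries at 22.7% to 25.0% and the N+S+ libraries at 22.8% to 25.6%. The early rise lay mostly in the first 2 members. At 100, 200 and 300 °Cd in N-S- grain TmLoc019089 held 0.137%, 3.96% and 11.7%, and TmLoc025590 0.0908%, 3.12% and 4.83%. The other 38 together held 5.14%, 7.64% and 7.92%. Over 300 to 600 °Cd the mean of the summed share was 23.1% (N+S-), 26.0% (N-S-) and 25.0% (N+S+).

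The similar totals were made up differently. TmLoc019089 averaged 12.8% (N+S-), 13.1% (N-S-) and 9.77% (N+S+) of the counts over 300 to 600 °Cd. TmLoc025590 averaged 1.54% (N+S-), 3.71% (N-S-) and 5.90% (N+S+). The other 38 members together averaged 8.71% (N+S-), 9.14% (N-S-) and 9.32% (N+S+). Since a share depends on all other counts of a library, the tests below use counts scaled with edgeR's TMM factors, which balance libraries of unlike composition, and levels are given as CPM on that scale.

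**Figure D1:**
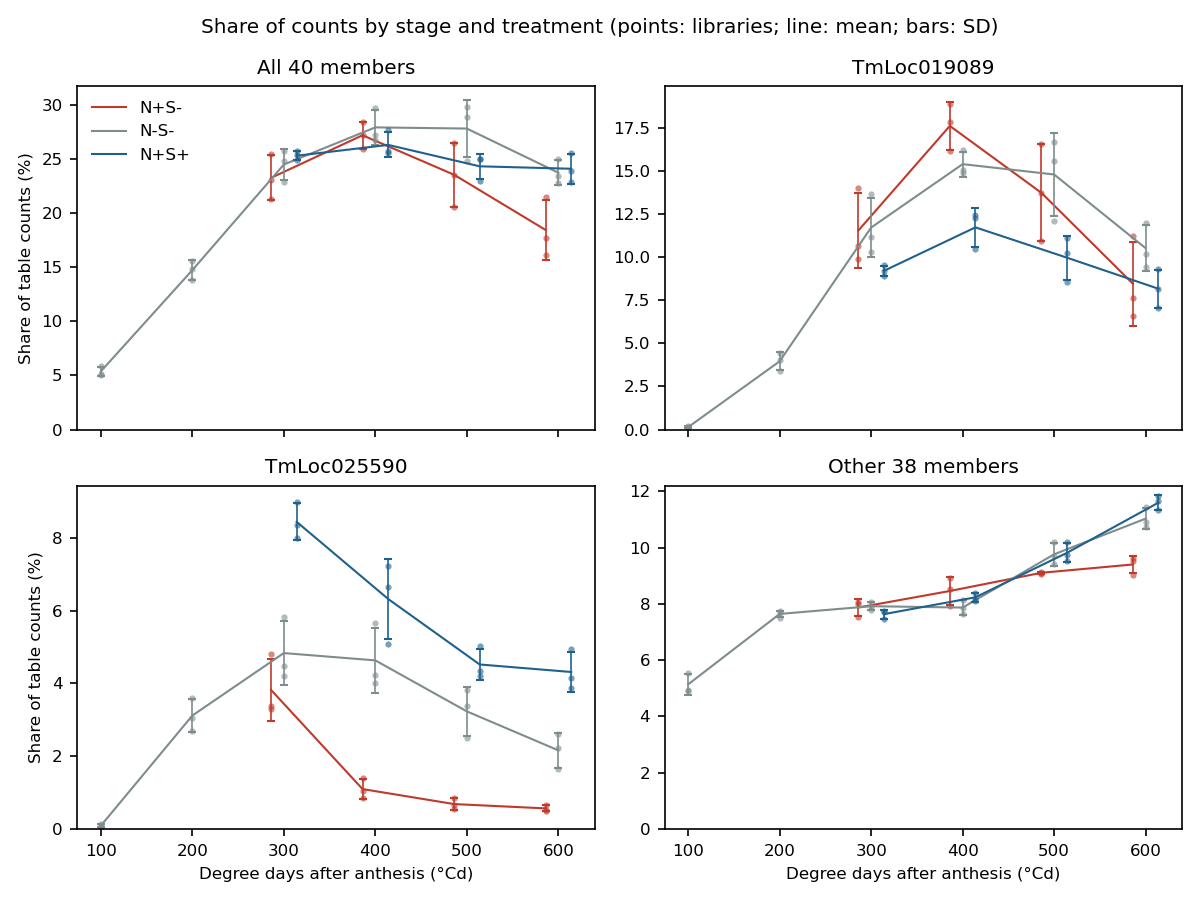
Share of the counts in the N+S- table accessions (percent, vertical axes) against degree days after anthesis, for all 40 members, TmLoc019089, TmLoc025590 and the other 38. Points are libraries, lines group means and bars SD; at 600 °Cd the summed share of the 3 N+S- libraries lies below that of the N-S- and N+S+ libraries.

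Many of the members rose early. Between 100 and 200 °Cd, 24 of the 40 members were higher at 200 °Cd (15.2% of the 8704 accessions tested were). Only 1 member was lower (8.26% of those tested were). These libraries were run on lane 3 and did not themselves enter the choice of members. The choice by high share in later grain still favours accessions that rise with age, and high counts let smaller changes be called. The excess of rises over all accessions is therefore not read as a result. TmLoc025755 had 2150, 2961 and 2526 CPM at 200 °Cd against 84.1, 37.0 and 20.7 CPM at 100 °Cd, a log2 change of 5.75 ± 0.36 SE (adjusted p = 1.46e-18, edgeR quasi-likelihood F test, Benjamini-Hochberg adjusted). TmLoc025590 had 18435, 26027 and 21722 CPM at 200 °Cd against 746, 438 and 263 CPM at 100 °Cd, a log2 change of 5.52 ± 0.31 (edgeR adjusted p = 3.81e-20). In both the groups stood far apart. TmLoc019089, the most abundant member, rose by 5.27 ± 0.29 on the same scale, with 23191 to 32164 CPM at 200 °Cd against 398.2 to 1038.5 CPM at 100 °Cd. TmLoc020297 was the member that fell, with 69.7, 74.4 and 101.9 CPM at 200 °Cd against 202.2, 127.5 and 151.6 CPM at 100 °Cd (log2 change -0.97 ± 0.18, edgeR adjusted p = 2.76e-05). Scaled by library totals alone, 16 members were higher at 200 °Cd and 3 lower, and TMM factors averaged 1.42 at 200 °Cd and 1.91 at 100 °Cd, so that the number of rises between these stages depends on the scaling.

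The members did not reach their highest level together. In the N-S- course, which alone runs over all 6 stages, the highest mean CPM on the TMM scale was at 100 °Cd in 0 members, at 200 in 5, at 300 in 7, at 400 in 5, at 500 in 9 and at 600 °Cd in 14. The stage depends on the scaling: by share of the raw counts it was 100 °Cd in 8 members, 200 in 7, 300 in 7, 400 in 1, 500 in 6 and 600 °Cd in 11. TmLoc017571 was nearly absent from young grain. It had 5.23, 1.45 and 0 CPM at 100 °Cd, 0.32, 0 and 0 CPM at 200 °Cd and 24.5, 26.1 and 28.5 CPM at 300 °Cd, and then 3670 to 5911 CPM at 400, 15925 to 20474 CPM at 500 and 28637 to 38511 CPM at 600 °Cd. TmLoc020624 and TmLoc024450 ran the other way, with 14187 to 16138 and 2907 to 3164 CPM at 300 °Cd, and 252.1 to 947.8 and 140.6 to 180.1 CPM at 600 °Cd. TmLoc023512 stayed within a few-fold throughout, between 1859 and 5196 CPM in every N-S- library.

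From 300 to 600 °Cd most members moved, and most in the same direction in each treatment. At 600 against 300 °Cd, N+S- grain had 21 members higher and 11 lower, where 19.5% and 22.0% of all tested accessions were. In N-S- grain 19 were higher and 11 lower (19.2% and 22.0% of all tested), and in N+S+ grain 18 were higher and 11 lower (17.9% and 21.8% of all tested). Of the 40, 18 were higher in all 3 treatments, 10 lower in all 3, 5 called in 1 or 2 of them, and 7, TmLoc019089 and TmLoc023512 among them, in none. The members were chosen on their level in these same libraries, and the lanes differ between the stages, so that nothing is read from these counts against those of all accessions.

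The largest rise belonged to TmLoc017571. In N+S- grain it had 15044, 14087 and 8356 CPM at 600 °Cd against 3.46, 0.59 and 23.6 CPM at 300 °Cd, a log2 change of 10.40 ± 0.53 (edgeR adjusted p = 9.13e-22), and in N+S+ grain 50301, 41520 and 43829 CPM against 7.83, 10.8 and 32.6 CPM, a log2 change of 11.38 ± 0.53. TmLoc014190 followed, with 3390, 2887 and 3647 CPM at 600 °Cd against 78.2, 52.7 and 145.7 CPM at 300 °Cd in N+S- grain (log2 change 5.16 ± 0.26). The largest falls in N+S- grain were a log2 change of -4.72 ± 0.27 in TmLoc024450 and of -4.61 ± 0.35 in TmLoc025755. TmLoc024450 had 56.4, 145.9 and 155.0 CPM at 600 °Cd against 3596, 3328 and 2542 CPM at 300 °Cd, and TmLoc025755 had 101.9, 239.6 and 100.9 CPM against 3585, 4431 and 2748 CPM. TmLoc020624 fell by 4.41 ± 0.32 in N+S+ grain and by 4.82 ± 0.33 in N-S- grain. None of these groups overlapped between the stages.

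**Figure D2:**
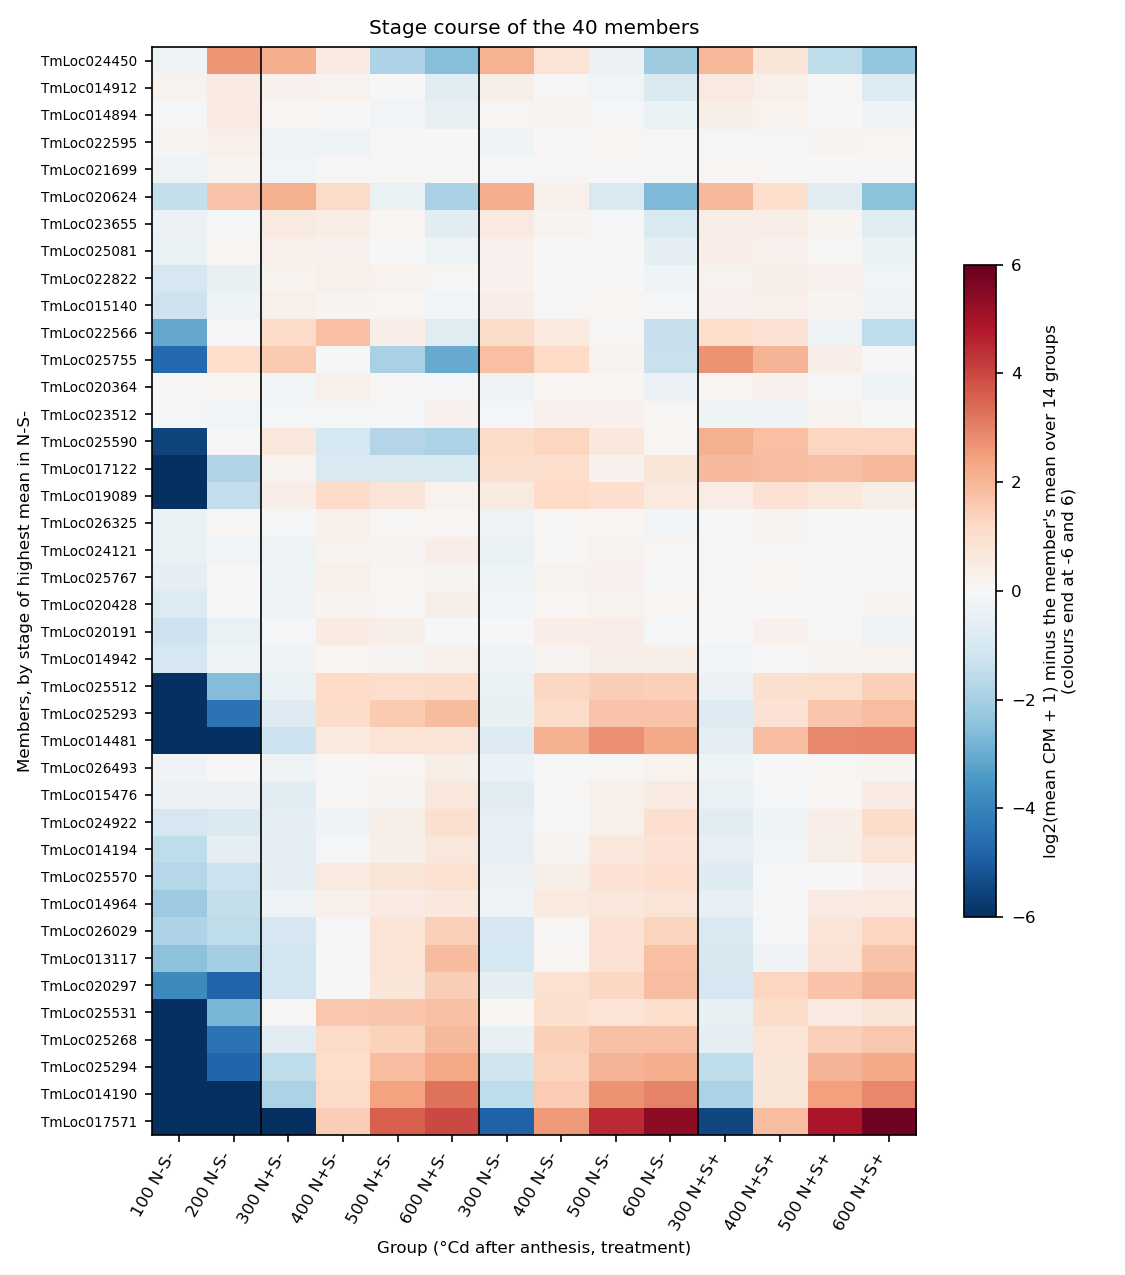
Level of each of the 40 members in the 14 groups, as log2(mean CPM + 1) minus the member's own mean over the groups (colour; red higher, blue lower), with members ordered by the stage of their highest mean in N-S- grain. TmLoc017571 and TmLoc014190 at the bottom climb from 300 to 600 °Cd in all 3 treatments, while TmLoc024450, TmLoc020624 and TmLoc025755 decline.

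With S lacking and N supplied, N+S- against N+S+ grain, a small group of members was lower by large factors and most showed no detected change. Averaged over 300 to 600 °Cd, 6 of the 40 members were lower and 3 higher without S, while 118 (1.36%) of the 8704 accessions tested were lower and 102 (1.17%) higher. The share of members called, in both directions, was above this background. The members were chosen for high counts, on which smaller changes can be called, and by a mean over the libraries compared. Nothing is therefore read from this excess. The median absolute log2 change was 0.075 over the members and 0.170 over all tested accessions. High counts also narrow the scatter of such estimates, so that nothing is read from this difference. The 31 members not called had log2 changes of -0.19 to 0.27 with standard errors of 0.061 to 0.140. The median log2 change was 0.04 over the members and 0.00 over all tested accessions.

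TmLoc025590 changed most. In N+S- grain it had 28896, 44447 and 30670 CPM at 300 °Cd, 10609, 13515 and 8265 CPM at 400 °Cd, 5076, 8471 and 6593 CPM at 500 °Cd and 5929, 6865 and 5337 CPM at 600 °Cd. In N+S+ grain it had 90855, 106911 and 95512 CPM at 300 °Cd, 93329, 58881 and 81140 CPM at 400 °Cd, 53830, 51107 and 58780 CPM at 500 °Cd and 50286, 65319 and 49148 CPM at 600 °Cd. Every N+S- library lay below every N+S+ library of its stage. The mean over the stages was 14556 ± 4551 CPM in N+S- and 71258 ± 10839 CPM in N+S+ grain (SD within stages, 12 libraries each), and the fitted change was 6.22-fold lower in N+S- (log2 change -2.64 ± 0.14, adjusted p = 2.72e-21, edgeR quasi-likelihood F test, Benjamini-Hochberg adjusted).

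TmLoc017122 was lower by nearly as much. It had 3902, 8493 and 6678 CPM at 300 °Cd and 3578, 2653 and 2704 CPM at 600 °Cd in N+S- grain, against 18369, 24249 and 20580 CPM at 300 °Cd and 25155, 22797 and 15767 CPM at 600 °Cd in N+S+ grain. Its mean over the stages was 3817 ± 1266 CPM in N+S- and 20243 ± 4613 CPM in N+S+ grain, a log2 change of -2.49 ± 0.13 (edgeR adjusted p = 2.72e-21). In N+S+ grain its level at 600 °Cd did not differ detectably from that at 300 °Cd (log2 change 0.01 ± 0.24), while in N+S- grain it was lower at 600 °Cd (log2 change -1.09 ± 0.25, edgeR adjusted p = 0.000319). The difference between these stage changes was not called (-1.11 ± 0.35, edgeR adjusted p = 0.221).

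TmLoc025755 and TmLoc014481 were also lower in every N+S- library than in any N+S+ library of the same stage, though their courses run in opposite directions. TmLoc025755 declined with age, to 101.9, 239.6 and 100.9 CPM at 600 °Cd in N+S- grain against 936, 1634 and 1146 CPM in N+S+ grain. It averaged 1314 ± 459 CPM in N+S- and 3898 ± 562 CPM in N+S+ grain, a log2 change of -2.15 ± 0.15 (edgeR adjusted p = 7.85e-16). TmLoc014481 increased with age, to 1131, 1324 and 602 CPM at 600 °Cd in N+S- grain against 4514, 4936 and 4223 CPM in N+S+ grain. It averaged 808 ± 248 CPM in N+S- and 2893 ± 448 CPM in N+S+ grain (log2 change -1.55 ± 0.12, edgeR adjusted p = 1.27e-14). Groups without overlap in this direction at all 4 stages were found in these 4 members, and in 17 (0.195%) of all accessions tested.

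The last 2 members that fell were later ones. TmLoc017571 was not called at 300 °Cd (log2 change -0.88 ± 0.56, edgeR adjusted p = 1.0), with 51 counts over the 3 N+S- libraries and 94 over the 3 N+S+ libraries. At 600 °Cd it had 15044, 14087 and 8356 CPM in N+S- grain against 50301, 41520 and 43829 CPM in N+S+ grain, a log2 change of -1.86 ± 0.34 (edgeR adjusted p = 0.000506). Averaged over the stages with equal weight the change was -1.11 ± 0.20 (edgeR adjusted p = 0.000168), with means of 6072 ± 1960 CPM in N+S- and 17920 ± 3799 CPM in N+S+ grain. TmLoc020297 had 2103, 2454 and 2505 CPM at 400 °Cd in N+S- grain against 6379, 4720 and 5956 CPM in N+S+ grain, and 1030, 747 and 1371 CPM at 300 °Cd against 1115, 1213 and 1117 CPM. The groups thus overlapped at 300 °Cd and at no later stage, and the averaged change was -0.74 ± 0.08 (edgeR adjusted p = 3.45e-09).

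The 5 members with the largest falls were short, from 380 to 702 bases long. Of the 8 members up to that length, a limit taken after the values were seen, the other 3, TmLoc019089, TmLoc025767 and TmLoc024450, were not called in this comparison. Of the 32 longer members 1, TmLoc020297, was lower. The shares of short and long accessions called among all those tested are not given here, so that no link with length is read from these counts.

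The members that rose in N+S- grain were TmLoc025531, TmLoc022566 and TmLoc025570, by smaller factors. TmLoc025531 had 15618, 13813 and 13561 CPM at 600 °Cd in N+S- grain against 6927, 7495 and 6020 CPM in N+S+ grain, and 3280, 2535 and 7514 CPM at 300 °Cd against 2757, 3746 and 2837 CPM. The groups overlapped at 300 and 400 °Cd and stood apart at 500 and 600 °Cd. Its mean was 11160 ± 2145 CPM in N+S- and 6246 ± 1156 CPM in N+S+ grain, a log2 change of 0.80 ± 0.14 (edgeR adjusted p = 0.000152). TmLoc025570 averaged 1586 ± 219 CPM in N+S- and 1033 ± 137 CPM in N+S+ grain (log2 change 0.57 ± 0.09, edgeR adjusted p = 2.07e-05), and 12 of 12 N+S- libraries exceeded the mean of N+S+ grain at their stage. TmLoc022566 averaged 1656 ± 452 CPM in N+S- and 1096 ± 149 CPM in N+S+ grain (log2 change 0.64 ± 0.14, edgeR adjusted p = 0.00239). At 400 °Cd, where its N+S- level was highest, it had 2801, 2564 and 3698 CPM in N+S- grain against 1557, 1862 and 1350 CPM in N+S+ grain. Without the libraries of replicate 3 it was not called (0.55, edgeR adjusted p = 0.145).

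TmLoc019089, which carries the largest share, was not called. It had 84087, 116058 and 69454 CPM at 600 °Cd in N+S- grain against 105900, 122994 and 83886 CPM in N+S+ grain, and 191389, 171465 and 157755 CPM at 400 °Cd against 158786, 144029 and 127560 CPM. The groups overlapped at 300, 400, 500 and 600 °Cd. The averaged change was 0.05 ± 0.12 (edgeR adjusted p = 0.973). Scaled by library totals alone it was 0.36 and called, on a scale on which the median accession moved by 0.30. TMM factors averaged 0.94 to 1.11 in the N+S- groups and 0.79 to 0.86 in the N+S+ groups. On library totals alone 31 members were higher and 6 lower without S, and 2294 and 69 of all accessions, so that the number of members higher without S depends on the scaling, while the same 6 members fell on both scales.

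**Figure D3:**
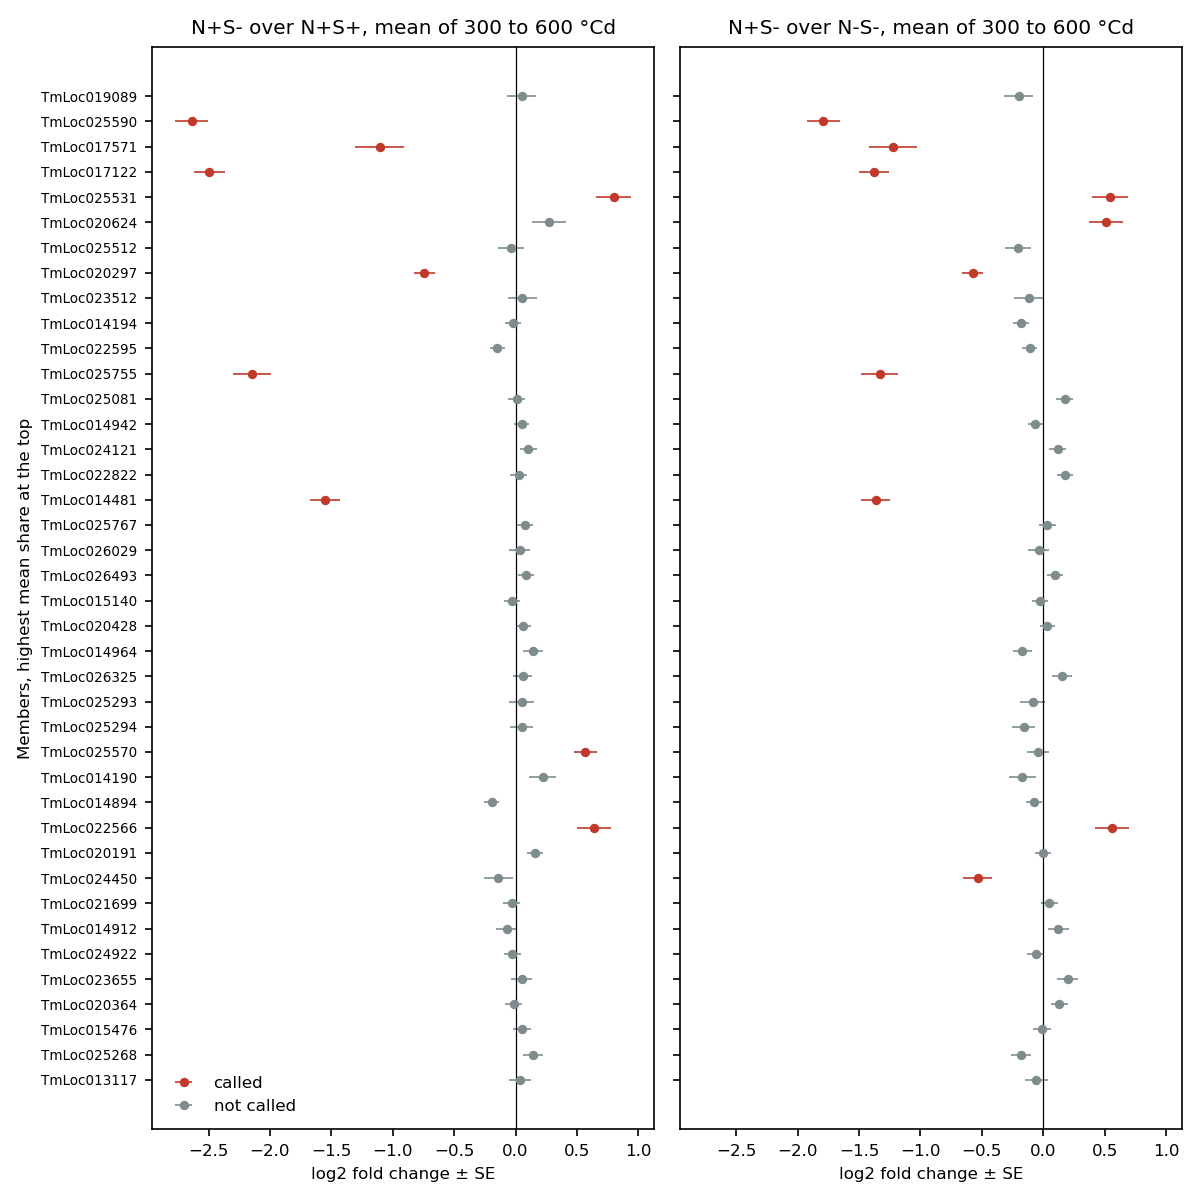
Fitted log2 change with its standard error for each of the 40 members, averaged over 300 to 600 °Cd, for N+S- over N+S+ (left) and N+S- over N-S- (right). Red points are called at an adjusted p under 0.05; the 6 members called below 0 on the left are also called below 0 on the right.

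At single stages the fewest members were called for S lack at 300 °Cd, where the share called of all accessions was also lowest. Nothing is read from these counts about the stages. At 300 °Cd 2 members were called, TmLoc025590 and TmLoc017122, both lower in N+S- grain, beside 0.31% of all accessions in either direction. At 400 °Cd 5 were called, each lower (1.08% of all accessions), at 500 °Cd 8, of which 6 were lower (0.839% of all), and at 600 °Cd 6, of which 5 were lower (1.18% of all). The fitted fall of TmLoc025590 in N+S- grain was 2.82-fold at 300, 7.20-fold at 400, 8.13-fold at 500 and 9.09-fold at 600 °Cd. The response at 600 °Cd minus that at 300 °Cd was tested directly and called in 3 members, in each as a larger fall at 600 °Cd, and in 0.31% of all accessions. It was -1.69 ± 0.37 in TmLoc025590 (edgeR adjusted p = 0.0144), -1.96 ± 0.43 in TmLoc025755 (edgeR adjusted p = 0.0144) and -1.45 ± 0.34 in TmLoc014481 (edgeR adjusted p = 0.0336). These 3 calls depend on single libraries, as given with the flagged results. With 500 °Cd, where treatment and lane coincide, left out of the average, the same 9 members were called, 6 lower and 3 higher, beside 1.6% of all accessions called in either direction. At 500 °Cd alone, leaving out any single N+S- or N+S+ library gave 5 to 6 members in place of 8. Without N+S- replicate 1 or 3, or N+S+ replicate 2 or 3, it was 5, each lower in N+S- grain. At 600 °Cd alone, any single library left out gave 5 members in place of 6.

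**Figure D4:**
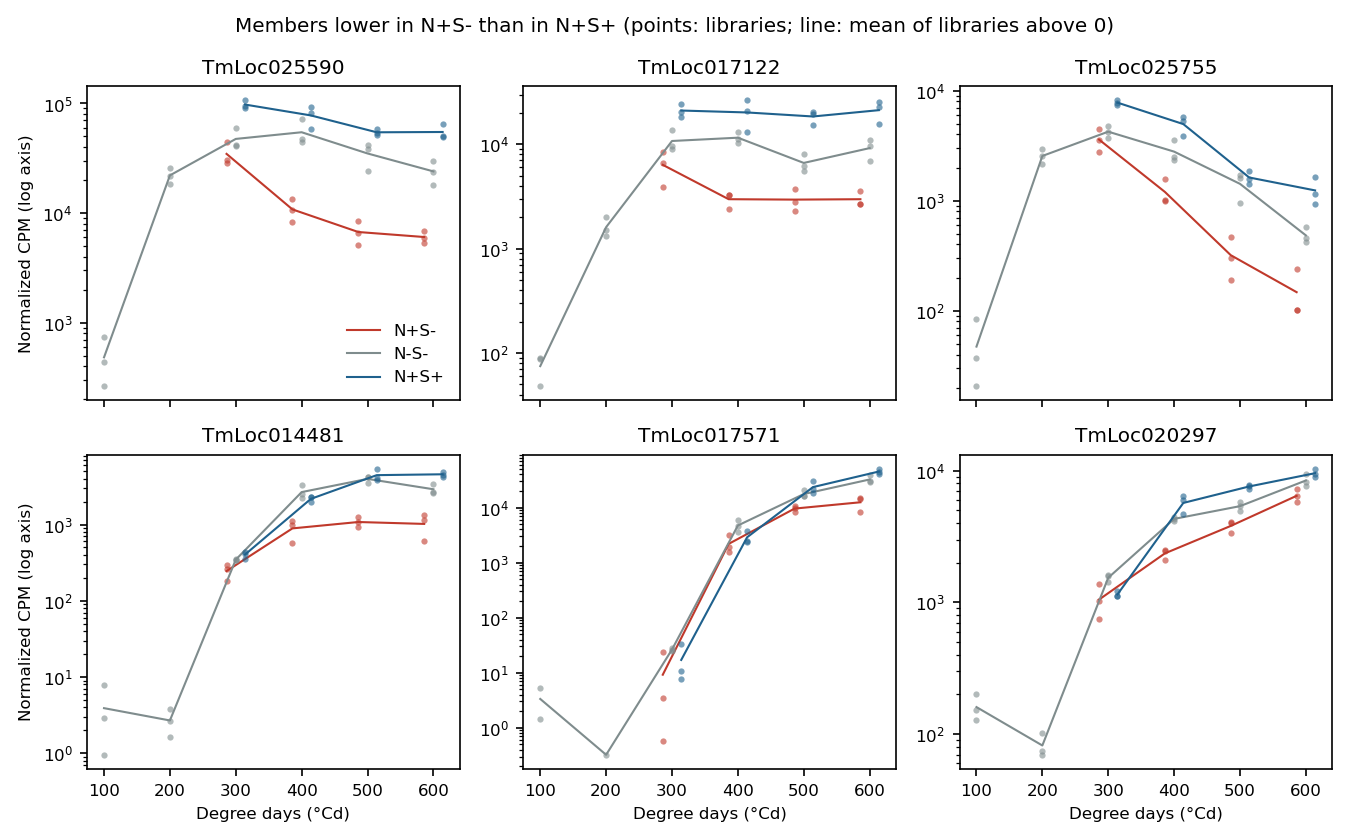
Normalized CPM (log axis) against degree days after anthesis for the 6 members that fell without S. Points are libraries (3 per group; libraries with 0 counts are not drawn) and lines join group means; N+S- lies below N+S+ at all 4 stages in TmLoc025590, TmLoc017122, TmLoc025755 and TmLoc014481, with no overlap.

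Supply of N without S, N+S- against N-S- grain, was compared next. This comparison uses the same N+S- libraries as the previous one, so that values are given side by side and their likeness is not read as a result. Averaged over 300 to 600 °Cd, 7 members were lower and 3 higher with N, while 84 (0.965%) of all tested accessions were lower and 140 (1.61%) higher. As for S, the members were chosen for high counts in these libraries, so that nothing is read from their share of calls. The 30 members not called had log2 changes of -0.21 to 0.20 with standard errors of 0.061 to 0.120. The median was -0.06 over the members and 0.03 over all accessions. On library totals alone, on which the median accession moved by 0.16, 11 members were higher and 7 lower, beside 640 and 55 of all accessions.

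TmLoc025590 had 10609, 13515 and 8265 CPM at 400 °Cd in N+S- grain against 47320, 71888 and 44680 CPM in N-S- grain. At 600 °Cd it had 5929, 6865 and 5337 CPM in N+S- grain against 30124, 23906 and 17956 CPM in N-S- grain. The groups overlapped at 300 °Cd and at no later stage. It averaged 14556 ± 4551 CPM in N+S- and 40271 ± 10738 CPM in N-S- grain (log2 change -1.79 ± 0.13, edgeR adjusted p = 3.80e-14). In N+S+ grain, the value given above was 71258 CPM.

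TmLoc017122, TmLoc014481, TmLoc017571 and TmLoc020297 had no overlap between N+S- and N-S- grain at any of the 4 stages, which held in this direction for 8 (0.0919%) of all accessions tested. For TmLoc017571 at 300 °Cd this rests on the TMM scaling: the nearest libraries had 23.6 CPM in N+S- and 24.5 CPM in N-S- grain, and as shares of the raw counts, at 0.00253% and 0.00249%, the groups overlapped. TmLoc017122 averaged 3817 ± 1266 CPM in N+S- and 9540 ± 1917 CPM in N-S- grain, a log2 change of -1.38 ± 0.12 (edgeR adjusted p = 9.26e-12). TmLoc014481 averaged 808 ± 248 CPM in N+S- and 2469 ± 402 CPM in N-S- grain, a log2 change of -1.37 ± 0.12 (edgeR adjusted p = 5.28e-12). At 600 °Cd it had 1131, 1324 and 602 CPM in N+S- grain against 3424, 2653 and 2622 CPM in N-S- grain. TmLoc017571 averaged 6072 ± 1960 CPM in N+S- and 13700 ± 2990 CPM in N-S- grain (log2 change -1.22 ± 0.20, edgeR adjusted p = 2.61e-05). TmLoc020297 averaged 3411 ± 464 CPM in N+S- and 4906 ± 509 CPM in N-S- grain (log2 change -0.58 ± 0.08, edgeR adjusted p = 4.78e-06).

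TmLoc025755 and TmLoc024450 were the remaining members that fell. TmLoc025755 averaged 1314 ± 459 CPM in N+S- and 2231 ± 471 CPM in N-S- grain (log2 change -1.33 ± 0.15, edgeR adjusted p = 1.03e-08), with overlap at 300 °Cd. TmLoc024450 rests on 500 °Cd, where it had 148.4, 245.4 and 187.2 CPM in N+S- grain against 494.5, 554.6 and 595.8 CPM in N-S- grain. Its averaged change was -0.53 ± 0.12 (edgeR adjusted p = 0.00421), and -0.21 with an adjusted p of 0.797 without that stage, whose N-S- libraries had the fewest accessions detected.

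The 3 rises with N were small and depended on the libraries used, and 2 of them also on the test. Without 500 °Cd 7 members were called, 6 lower and 1 higher, beside 0.919% of all accessions in either direction. TmLoc022566 averaged 1656 ± 452 CPM in N+S- and 1114 ± 219 CPM in N-S- grain (log2 change 0.56 ± 0.14, edgeR adjusted p = 0.0131). TmLoc025531 averaged 11160 ± 2145 CPM in N+S- and 7185 ± 2062 CPM in N-S- grain (log2 change 0.54 ± 0.14, edgeR adjusted p = 0.0231). TmLoc020624 averaged 6282 ± 647 CPM in N+S- and 5307 ± 696 CPM in N-S- grain (log2 change 0.51 ± 0.14, edgeR adjusted p = 0.0331). Without 500 °Cd the adjusted p was 0.0319 for TmLoc022566, 0.347 for TmLoc025531 and 0.186 for TmLoc020624. The call of TmLoc022566 was lost without N+S- replicate 2 of 500 °Cd (adjusted p = 0.0552) or of 600 °Cd (0.0615). That of TmLoc025531 was lost without replicate 3 of N+S- or of N-S- grain at 300 or 400 °Cd, with adjusted p of 0.102 and 0.0576 at 300 °Cd and 0.0521 and 0.0617 at 400 °Cd. For TmLoc020624 each of 10 libraries, left out alone, ended the call, with adjusted p of 0.0521 to 0.130. By DESeq2 the adjusted p was 0.0381 for TmLoc022566, 0.0774 for TmLoc025531 and 0.0680 for TmLoc020624, and with only the groups compared in the edgeR fit TmLoc020624 was not called either (adjusted p = 0.0742).

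TmLoc025570, which rose without S, averaged 1586 ± 219 CPM in N+S- and 1626 ± 531 CPM in N-S- grain and was not called (log2 change -0.04 ± 0.09, edgeR adjusted p = 0.941). TmLoc019089 averaged 125611 ± 24312 CPM in N+S- and 142754 ± 24569 CPM in N-S- grain and was not called either (log2 change -0.20 ± 0.12, edgeR adjusted p = 0.475). In total 29 members were called in neither comparison.

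**Figure D5:**
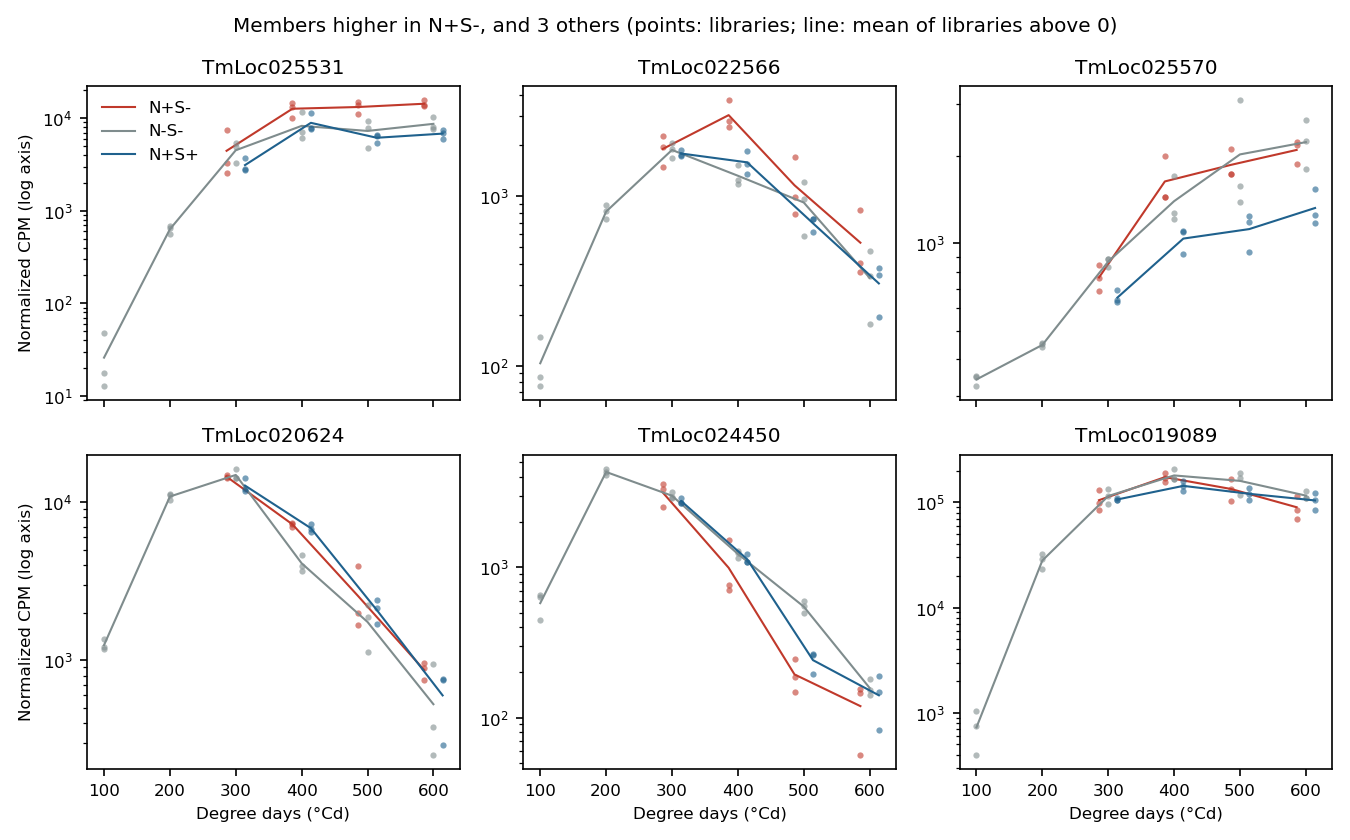
Normalized CPM (log axis) against degree days after anthesis for the 3 members that rose without S and for TmLoc020624, TmLoc024450 and TmLoc019089. Points are libraries and lines join group means; TmLoc025531 lies highest in N+S- grain at 500 and 600 °Cd, and TmLoc024450 in N-S- grain lies apart at 500 °Cd.

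By stage, no member was called at 300 °Cd in N+S- against N-S- grain, and none of all accessions was (0% of those tested) by edgeR's quasi-likelihood test or by DESeq2, with 4 members and 113 of all accessions at an unadjusted p under 0.05. At 400 °Cd 5 members were called, 4 of them lower (0.31% of all accessions in either direction), at 500 °Cd 5, each lower (4.47% of all), and at 600 °Cd 5, each lower (0.816% of all). The higher member at 400 °Cd was TmLoc022566, with 2801, 2564 and 3698 CPM in N+S- grain against 1245, 1540 and 1190 CPM in N-S- grain. The change of the N response between 600 and 300 °Cd was called in 0 members and 2 (0.023%) of all accessions, with 5 members at an unadjusted p under 0.05 and 0 called by DESeq2. In TmLoc025590 it was -1.54 ± 0.37 (edgeR adjusted p = 0.170).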

How the data were processed

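Per the labels' protocols, strand-specific libraries of polyadenylated RNA were read as paired ends of 125 bases. BWA 0.7.12-r1039, CASAVA 1.8.4 and edgeR are named in the submitters' processing notes, and the reference, the counting tool and the genome build are not given in the labels or headers. Per the file headers, the authors deposited for each treatment a raw count and a normalized signal per accession and library, beside length and covered length. The deposited normalized signal is the raw count divided by a constant per library, set within each table, and was not used. The N-S+ table served only to choose the members, and 0 columns of per-sample values lacked a sample here.

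The 42 libraries were grouped from the labels. No 2 replicates had identical counts, and the closest pair had a chi-square of 2.63 per degree of freedom. Raw counts of the 18308 accessions were filtered with filterByExpr, which kept 8704 and all 40 members, scaled by TMM (trimmed mean of M values) and fitted with a mean per group and a trended dispersion in edgeR 4.0.16 (R 4.3.3). Averages over 300 to 600 °Cd weight the stages equally, calls were made at a Benjamini-Hochberg p under 0.05 over the 8704, and the standard error is the absolute log2 fold change over the square root of F. The model was also run on simulated counts, drawn with the dispersion of the main fit. Since these counts follow the model itself, the run checks the code and not how well the model describes these data. Intervals from depth cover counting error only.

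Members and lists were chosen with earlier results of these data known. The accessions named are the 10 with the highest share, up to 5 called rises and 5 falls of one sign at all stages in each of the S and N comparisons, the 2 largest rises and falls of each stage comparison, and those at the edge of the choice; TmLoc020297, TmLoc024450 and TmLoc020624 in comparisons they do not enter by that rule, TmLoc025767 and all counts of 5 or fewer were named after their values were seen. Replicate numbers did not pair the samples. Alternatives were DESeq2 1.42.0, other scalings, no filter, fewer groups, a replicate block, libraries left out and, added after seeing the data, a fit without the libraries of 500 °Cd.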

Additional observations from a re-analysis of the deposited data

Results flagged for a closer look

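In 3 members the response to S lack, N+S- against N+S+, differed between 600 and 300 °Cd by a test of the difference itself (edgeR quasi-likelihood F test, adjusted over all 8704 accessions). TmLoc025590 differed by -1.69 on the log2 scale: its mean was 6044 CPM in N+S- against 54917 CPM in N+S+ grain at 600 °Cd, and 34671 CPM in N+S- against 97759 CPM in N+S+ grain at 300 °Cd. TmLoc025755 differed by -1.96, with 147.5 CPM in N+S- against 1239 CPM in N+S+ grain at 600 °Cd and 3588 against 7769 CPM at 300 °Cd. TmLoc014481 differed by -1.45, with 1019 CPM in N+S- against 4557 CPM in N+S+ grain at 600 °Cd and 245.5 against 403.7 CPM at 300 °Cd.

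All 3 directions held in each of 22 settings, and the calls did not. TmLoc025590 was called in 14 of them, with log2 differences of -1.81 to -1.47 and an adjusted p of at most 0.209. TmLoc025755 was called in 14, with -2.51 to -1.71 and an adjusted p of at most 0.204, and TmLoc014481 in 11, with -1.71 to -1.10 and an adjusted p of at most 0.405. None of the 3 was called by edgeR without N+S+ replicate 1 or 3 of 300 °Cd (lowest adjusted p 0.0585 and 0.0561), without N+S- replicate 3 (0.0704) or N+S+ replicate 2 (0.0676) of 600 °Cd. Without N+S- replicate 2 of 300 °Cd TmLoc014481 alone was called. TmLoc014481 was also lost without N+S+ replicate 2 or N+S- replicate 1 or 3 of 300 °Cd or N+S+ replicate 1 of 600 °Cd (0.111, 0.0935, 0.104 and 0.0513), and TmLoc025755 without N+S- replicate 1 of 600 °Cd (0.0753). The lanes differ between the stages and are the same for both treatments within each.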

How the results depend on the processing

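On library totals alone, S lack called 2363 accessions, 37 members over 300 to 600 °Cd, 17 at 400 and 11 at 600 °Cd, N supply called 695 accessions, 18 members over the stages, 8 at 400 °Cd and 1 for the stage difference, and, of the members named by rule, the S changes of TmLoc014194 and TmLoc025512 reversed to called rises of 0.29 and 0.27, on a scale on which the median accession moved by 0.30. Of all 40, 10 changed sign for S lack, 7 of them called on library totals, and 12 for N supply, 0 of them called; none of these was called with TMM. Without the low-count filter, S lack called 4 members at 300 and 10 at 600 °Cd, and N supply 2 at 300, 9 at 400, 9 at 500, 8 at 600 °Cd and 4 for the stage difference; the cause was not tested. With only the groups compared, S lack called 4 members at 300 °Cd and N supply 8 at 400 °Cd. Without 500 °Cd, S lack called 139 accessions and N supply 80, or 84 with its libraries also out of the fit. With the counts of the complete table as denominator, which is larger, the members held 15.3% of the counts of N-S- grain and 15.0% of those of N+S+ grain. The replicate block gave 9 members for S lack and 10 for N supply, as without it; deviations of libraries with the same number correlated at -0.105 to 0.131, with 4 of 273 pairs over 0.1, and 17 of 42 libraries were closest to one of their own number.

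With libraries left out, S lack called 95 to 226 accessions, 8 to 9 members over the stages, 1 to 2 at 300, 4 to 6 at 400, 4 to 6 at 500, 5 to 6 at 600 °Cd and 0 to 3 for the stage difference. N supply called 74 to 269 accessions, 6 to 10 members over the stages, 0 to 1 at 300, 3 to 6 at 400, 4 to 6 at 500, 2 to 6 at 600 °Cd and 0 for the stage difference. The 1 member at 300 °Cd appeared without N+S- replicate 3. The stage comparisons called 30 to 33 members in N+S- grain, 28 to 31 in N-S- grain, 25 to 30 in N+S+ grain and 21 to 25 at 200 against 100 °Cd. The summed share was 22.6% to 23.7% (N+S-), 25.6% to 26.3% (N-S-) and 24.7% to 25.2% (N+S+). Every other alternative kept the counts of calls within 1.5 times. Depth limits TmLoc017571, TmLoc014481 and TmLoc014190 at 100 and 200 °Cd, where they have few counts. Some other members also have few counts at 100 °Cd. Their lowest share was 0.000150%, in replicate 3, where 3 counts make 0.000112%.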
